A study of Drosophila melanogaster with 2 samples.

Results

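Complex IV of the respiratory chain, cytochrome c oxidase, and its electron donor cytochrome c were followed at the RNA level in whole adult males of *Drosophila melanogaster*. The set was chosen by gene symbol, with earlier results of these data known, as 10 names looked up exactly in the deposited table of 14794 genes. The table held 8 of them: the complex IV subunit genes *CoVa*, *cype*, *levy*, *CG14235*, *CG2249* and *CG9603*, and the cytochrome c genes *Cyt-c-p* and *Cyt-c-d*. The other 2 names, *CoIV* and *CoVb*, were dropped by that rule. In RefSeq (Release 6) they are synonyms of *CG10664* and *CG11015*, which the table does list, and these are described beside the 8 genes without being counted among them.

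One library came from *heph2* homozygous males and one from *heph2*/*TM3* males, which served as the wild-type control, both of males aged 1 to 3 days. *heph2* is a *P* element insertion in an intron of *hephaestus*, the gene of the polypyrimidine tract-binding protein, and homozygous males are sterile because their spermatids do not become individual sperm. The control males carry 1 *heph2* chromosome as well, over the balancer *TM3*, a rearranged chromosome 3, so neither library is free of the mutation and the genotypes also differ in *TM3*. The number of flies pooled for each library is not given in the sources used here. With 1 library per genotype there is no replicate check and no p-value, and each difference is between these 2 libraries.

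Complex IV is the last enzyme of the respiratory chain. It takes electrons from cytochrome c, passes them to oxygen and pumps protons across the inner mitochondrial membrane. Its catalytic core is encoded by the mitochondrial genome, and the smaller subunits around it by nuclear genes. Insect flight muscle is packed with mitochondria. *Drosophila* has a somatic cytochrome c gene, *Cyt-c-p*, and a testis gene, *Cyt-c-d*, and males without *Cyt-c-d* are sterile, with a failure of caspase activation and of spermatid individualization.

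Expression is given as FPKM, that is, fragments per kilobase of a gene's transcript after scaling for sequencing depth. The change of a gene is the log2 ratio of *heph2* FPKM to control FPKM with no pseudocount, so that a log2 ratio of 1 is 2-fold. It was computed for the 11962 genes with a mean of at least 1 FPKM and a value above 0 in both libraries, and all 8 genes of the set were among them. Reads behind a value were estimated from the FPKM step of 1 read and the transcript length. Each of the 8 genes rested on about 10477 to 34402 reads in the control and 9872 to 77681 reads in *heph2*, so counting error was small, while differences between flies were not measured.

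All 8 genes were higher in *heph2*, and 6 of them at least 2-fold: *Cyt-c-p*, *levy*, *CoVa*, *CG14235*, *CG2249* and *cype*. Of all genes compared, 334 were at least 2-fold higher, which is 2.79%, and 292 at least 2-fold lower, which is 2.44%, so that 5.23% changed in either direction. Counting any difference, 6159 of the 11962 genes compared were higher and 5803 lower. The median log2 ratio was 1.32 over the 8 genes and 0.01 over all genes compared. The genes were chosen with these ratios known, so their count and median are a description of the set. The 2 genes below 2-fold were *CG9603* and the testis gene *Cyt-c-d*. *CG10664* and *CG11015* were also at least 2-fold higher, which makes 8 of 10 with them included and leaves the median at 1.32. The count depended on the scaling. With the ratios centred on ribosomal protein genes, 2 genes of the set, *Cyt-c-p* and *levy*, were at least 2-fold higher and *Cyt-c-d* was slightly lower. With *CG10664* and *CG11015* included it was then 3 of 10. Over all genes, 103 of 11962 were at least 2-fold higher with that centring.

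**Figure D1:**
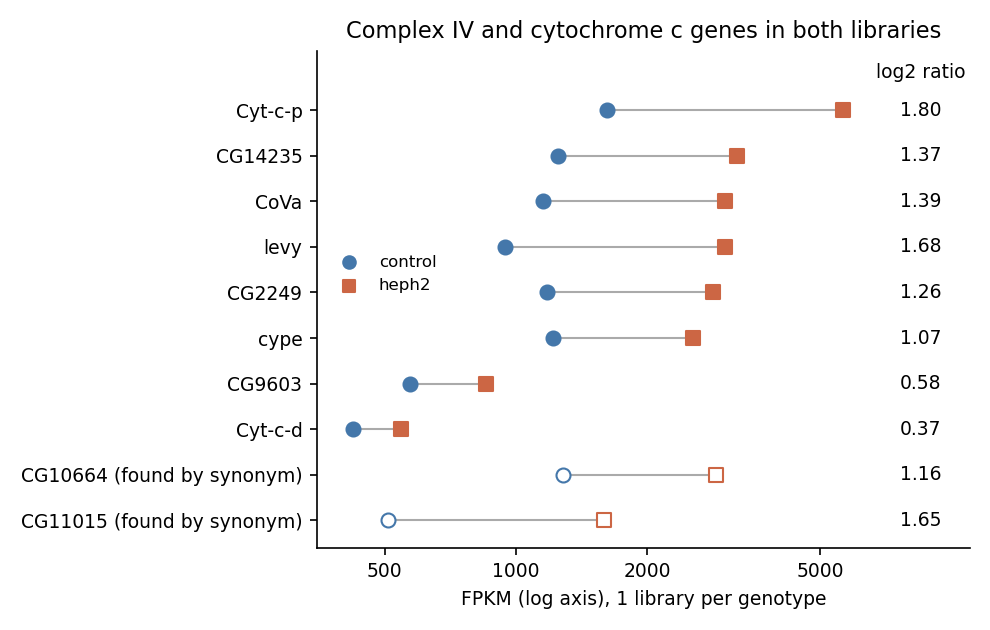
FPKM of each gene (log axis) in the control library (circles) and the *heph2* library (squares), with the log2 ratio at the right. Filled symbols are the 8 genes found by their exact symbol and open symbols are *CG10664* and *CG11015*, found by synonym. *Cyt-c-p* had the highest value in both libraries, at 1617 and 5638 FPKM, and the lines of *CG9603* and *Cyt-c-d* are the shortest.

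*Cyt-c-p* (FBgn0000409, chromosome 2L) stood at 1617 FPKM in control males and 5638 FPKM in *heph2*. This was the largest change of the set, 3.49-fold with a log2 ratio of 1.80, with a higher ratio in 34 of the 11962 genes compared. It moved from rank 102 to rank 21 among all genes of the table by FPKM. Its locus entry in FlyBase r5.44, from 16680046 to 16729636, is a region of 14 genes that also holds *Cyt-c-d*.

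*Cyt-c-d* (FBgn0086907) stood at 423 FPKM in control males and 544 FPKM in *heph2*, the lowest values of the set in both libraries. The ratio was 1.29-fold, a log2 ratio of 0.37, and it was lower in 80.7% of all genes compared. Its rank by FPKM stayed nearly the same, at 429 and 428. The direction of this small change depended on the scaling of the libraries. With the median of the 82 cytosolic ribosomal protein genes set to 0 it was -0.08, while that of *Cyt-c-p* was 1.36.

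The 2 cytochrome c genes can be set against each other within a library, where the scaling of the library cancels. *Cyt-c-p* was 3.83 times as high as *Cyt-c-d* in the control and 10.4 times as high in *heph2*. *Cyt-c-d* thus made up 20.7% of the summed FPKM of both genes in the control and 8.81% in *heph2*, a change of -1.44 in the log2 ratio of *Cyt-c-d* to *Cyt-c-p*. In the FPKM values as deposited the testis gene itself was not lower in *heph2*. In whole flies, more cells of a type and more RNA per cell cannot be told apart.

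Among the subunit genes, *levy* (FBgn0034877, chromosome 2R) changed most. It encodes subunit 6A, and its mutants are known for paralysis after mechanical shock and a short life. *levy* stood at 943 FPKM in control males and 3013 FPKM in *heph2*, 3.20-fold higher with a log2 ratio of 1.68. No more than 49 of the genes compared had a higher ratio.

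*CoVa* and *CG14235* changed by nearly the same factor. *CoVa* (FBgn0019624, chromosome 3R) encodes subunit 5A and went from 1158 FPKM to 3024 FPKM, a 2.61-fold increase. *CG14235* (FBgn0031066, chromosome X), named *COX6B* in RefSeq for subunit 6B, went from 1248 FPKM to 3224 FPKM, a 2.58-fold increase. The log2 ratios were 1.39 for *CoVa* and 1.37 for *CG14235*. *CG14235* was second to *Cyt-c-p* in both libraries.

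*CG2249* (FBgn0040773, chromosome 2R), named *COX7C* in RefSeq, went from 1179.99 FPKM to 2829 FPKM, 2.40-fold higher with a log2 ratio of 1.26. *cype* (FBgn0015031, chromosome 2L), also called cyclope, encodes subunit 6C. It went from 1217 FPKM to 2554 FPKM, 2.10-fold higher with a log2 ratio of 1.07, just above the 2-fold limit. It was the third highest gene of the set in the control and the sixth in *heph2*.

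*CG9603* (FBgn0040529, chromosome 3R from 4165666 to 4166763), named *COX7A* in RefSeq, had the smallest ratio of the subunit genes. It stood at 573 FPKM in control males and 857 FPKM in *heph2*, 1.496-fold higher with a log2 ratio of 0.58. It was the lowest of the 6 subunit genes in both libraries and the single gene of the set alone in its locus entry. Its share of the summed FPKM of the 8 genes was 6.85% in the control and 3.95% in *heph2*.

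The gene dropped from the set as *CoVb*, listed as *CG11015* (FBgn0031830, chromosome 2L) and encoding subunit 5B, went from 508 FPKM to 1592 FPKM. This was 3.13-fold higher, with a log2 ratio of 1.65, close to *levy*. *CG10664* (FBgn0032833, chromosome 2L), the gene of subunit 4 known as *CoIV*, went from 1283 FPKM to 2874 FPKM, 2.24-fold higher with a log2 ratio of 1.16.

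Further subunit genes are named in RefSeq. *CG7181* (*COX8*), from a list of complex IV genes outside the set, went from 1136 FPKM to 3180 FPKM with a log2 ratio of 1.48. *CG7630* (*COX7B*), added after the values were seen, went from 1609 FPKM to 4260 FPKM with a log2 ratio of 1.41. Over the 10 nuclear subunit genes together, the 6 of the set and these 4, the log2 ratios lay between 0.58 and 1.68 with a median of 1.38, and 9 were at least 2-fold higher. The exception was *CG9603*. Centred on ribosomal protein genes, 3 of the 10 were at least 2-fold higher, *levy*, *CG11015* and *CG7181*, against 103 of the 11962 genes compared. Within bins of transcript length and FPKM 2 were, *levy* and *CG11015*, against 206 of the 11570 genes compared that have a length. The 3 core subunit genes of the mitochondrial genome, *mt:CoI*, *mt:CoII* and *mt:CoIII*, are listed at 0 in both libraries, as are all 37 genes of that genome, so the core could not be compared with the nuclear subunits.

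The 8 genes differed more among themselves in *heph2* than in the control. The highest value was 3.83 times the lowest in the control and 10.4 times in *heph2*, with *Cyt-c-p* at the top and *Cyt-c-d* at the bottom in both. *Cyt-c-p* stood at 1.38 times the median of the 6 subunit genes in the control and at 1.93 times in *heph2*. Between these ends, *CG14235*, *cype*, *CG2249* and *CoVa* lay within 1158 to 1248 FPKM in the control, and their order cannot be judged against a spread from 1 library. The summed FPKM of the 8 genes was 0.734% of all FPKM in the control and 1.56% in *heph2*.

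Several complex IV genes have a second copy elsewhere in the fly genome, and duplicates of nuclear respiratory chain genes are known for testis-biased expression in *Drosophila*. A list of 7 such paralogs, *Cyt-c-d* included, was set against their partners. All 7 were higher in *heph2*, 1 of them at least 2-fold, and the median log2 ratio was 0.46. With the ratios centred on ribosomal protein genes, 4 were higher and 3 lower. Their median was then 0.02 and none was at least 2-fold higher, so the direction of the list depended on the scaling. Over all genes, 6159 of 11962 were higher as deposited and 1788 after that centring. The pairs were as follows, with 1 pair added after the values were seen.

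*CG11043* (*COX5BL*) lies next to its partner *CG11015* on chromosome 2L. It stood at 235 FPKM in control males and 290 FPKM in *heph2*, a log2 ratio of 0.31 against 1.65 for *CG11015*. Its share of the pair's summed FPKM was 31.6% in the control and 15.4% in *heph2*. Both paralogs of *levy* moved in the same manner. *CG30093* (*COX6AL*) had 201 FPKM and 276 FPKM, with a log2 ratio of 0.46, and its share of the pair with *levy* was 17.5% in the control and 8.40% in *heph2*. *CG14077* (*COX6AL2*) was far lower, at 41.6 FPKM and 53.2 FPKM, with a log2 ratio of 0.35.

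*CG10396* (*COX4L*) stood at 365 FPKM in control males and 542 FPKM in *heph2*, a log2 ratio of 0.57 against 1.16 for its partner *CG10664*, and its share of that pair was 22.1% and 15.9%. *CG31644* (*COX6CL*), the pair added later, had 381 FPKM and 452 FPKM, with a log2 ratio of 0.24 against 1.07 for *cype*. In each of these pairs, as in that of *Cyt-c-d* and *Cyt-c-p*, the paralog had the lower FPKM in both libraries and the smaller ratio. The log2 ratio of the paralog minus that of its partner was between -1.44 and -0.59.

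The genes of subunit 7A did not follow this order. *CG18193* (*COX7AL*) stood at 285 FPKM in control males and 438 FPKM in *heph2*, and its log2 ratio of 0.62 differed from that of *CG9603* by 0.04. *CG34172* (*COX7AL2*) stood at 799 FPKM in control males and 1980.22 FPKM in *heph2*, 2.48-fold higher with a log2 ratio of 1.31, like the other subunit genes and above *CG9603* in both libraries. It was first listed as a partner of *CG2249*, and was set beside *CG9603* from its RefSeq name after the values were seen. Of the summed FPKM of these 3 genes, *CG34172* made up 48.2% in the control and 60.5% in *heph2*, *CG9603* 34.6% and 26.2%, and *CG18193* 17.2% and 13.4%. Without *CG34172*, none of the other 6 paralogs was 2-fold higher, and their log2 ratios lay between 0.31 and 0.62.

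**Figure D2:**
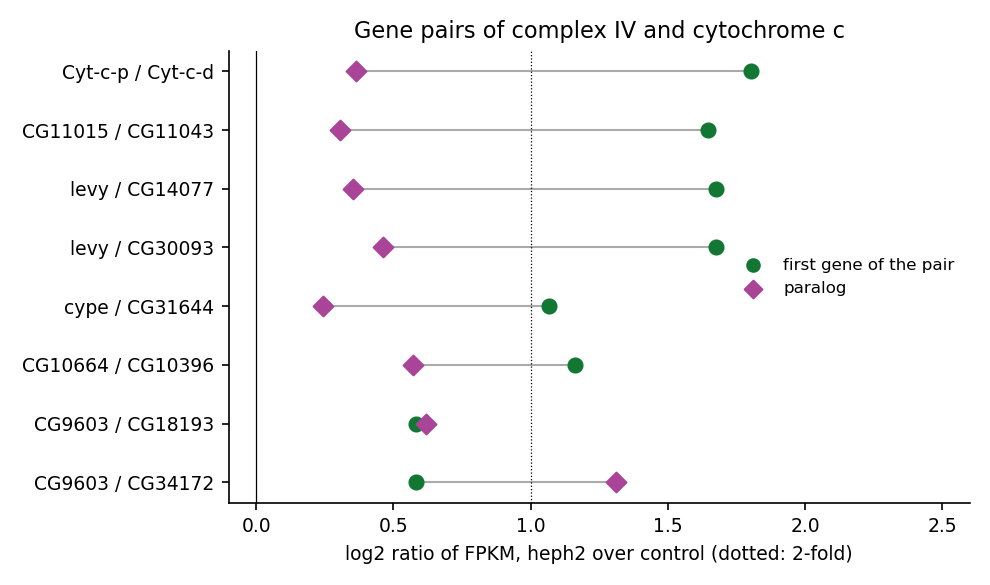
Log2 ratio of *heph2* to control FPKM for 8 gene pairs, with the first gene named in each pair as a circle and its paralog as a diamond (1 library per genotype). The paralog lies to the left in 6 pairs (differences of -1.44 to -0.59), at about the same place for *CG18193* (log2 ratios of 0.62 and 0.58), and to the right for *CG34172* (1.31 against 0.58).

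The log2 ratios of all genes moved with transcript length, and the genes of the set are short, with transcripts of 398 to 802 nucleotides in the BDGP6 annotation. Over 20 bins of transcript length, the median log2 ratio ran from 0.38 in short genes to -0.27 in long genes. Of the 179 other genes within the same lengths and with a mean FPKM at or above that of *Cyt-c-d*, 47 were at least 2-fold higher, which is 26.3%, and their median log2 ratio was 0.57. Some of these are other respiratory chain genes. Each ratio was therefore also taken relative to the median of genes of similar length and FPKM.

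On that scale *Cyt-c-p* was at 1.24, *levy* at 1.12, *CoVa* at 0.92, *CG14235* at 0.90, *CG2249* at 0.70 and *cype* at 0.51, while *CG9603* was at 0.02 and *Cyt-c-d* at -0.11. The order of the 8 genes was kept, and 2 of the 8, *Cyt-c-p* and *levy*, were still above a 2-fold difference. Of the 11570 genes compared that have a length, 206 were at least 2-fold higher on that scale. What causes the dependence on length was not tested.

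**Figure D3:**
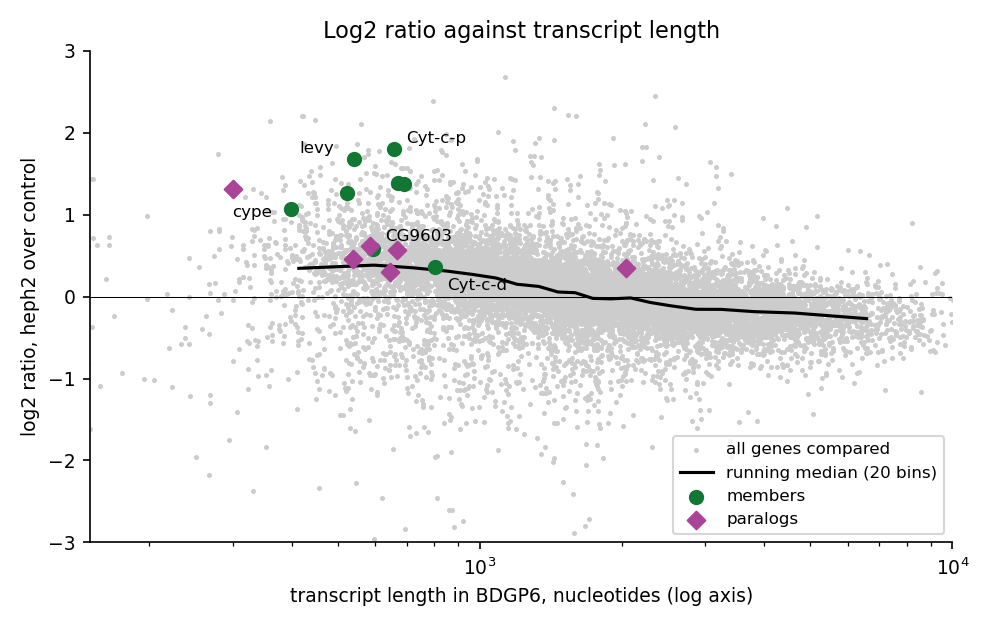
Log2 ratio of *heph2* to control FPKM against transcript length in nucleotides (log axis), with 1 point per gene compared that has a length and the median of 20 length bins as a line. A total of 204 genes lie outside the axes. Of the 8 genes of the set (circles), 6 lie above the 2-fold level of 1. *CG9603* at 0.58 and *Cyt-c-d* at 0.37 lie below it, as do the paralogs (diamonds) other than *CG34172* at 1.31. The median line reaches 0.38 at most. The longest paralog is *CG14077* at 0.35.

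Assembly of complex IV needs further proteins, which bring in haem and copper and help the subunits together. Of a list of 9 such genes, 8 were in the table, and none of these was at least 2-fold changed. Their median log2 ratio was 0.37, with 7 higher and 1 lower in *heph2*. The highest was *CG9065* (*Cox17*), a copper carrier, which went from 168 FPKM to 292 FPKM with a log2 ratio of 0.80. *Cchl*, the enzyme that attaches haem to cytochrome c, went from 173 FPKM to 254 FPKM with a log2 ratio of 0.55. *CG8885* (*Scox*), which delivers copper to the core, had 46.8 FPKM and 47.4 FPKM, and *CG3803* had 17.8 FPKM and 16.3 FPKM. Centred on ribosomal protein genes, the median of the list was -0.08, with 3 higher and 5 lower, so its direction depended on the scaling. Of the 11962 genes compared, 6159 were higher as deposited and 1788 after that centring.

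In the testis, *Cyt-c-d* acts with the caspase machinery of spermatid individualization. As deposited, none of the 7 genes listed for it was at least 2-fold changed, and their median log2 ratio was 0.02, with 4 higher and 3 lower. Centred on ribosomal protein genes, their median was -0.43 and all 7 were lower, as were 10174 of the 11962 genes compared. *Ark*, the adaptor of the apoptosome, stood at 3.58 FPKM in control males and 2.67 FPKM in *heph2*, a log2 ratio of -0.42. *soti* and *klhl10*, regulators of caspase activity in spermatids, had log2 ratios of 0.02 and -0.25. The lowest ratio of the list was that of the initiator caspase *Nc*, at -0.85, or 55.3% of control, and the authors list it as differentially expressed. Centring on ribosomal protein genes lowers every log2 ratio by 0.44, and scaling on mapped reads by 0.28. With either of these *Nc* was more than 2-fold lower. The highest ratio as deposited was that of the effector caspase *Dcp-1*, at 0.38. The log2 ratio of *Cyt-c-d*, 0.37, lay just below that of *Dcp-1*.

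The 2 neighbours of complex IV in oxidative phosphorylation were read in the same way. The median log2 ratio was 1.14 over 9 complex III genes, of which 6 were at least 2-fold higher, and 1.29 over 12 ATP synthase genes, of which 11 were. Of the 11962 genes compared, 334 were at least 2-fold higher, which is 2.79%. The counts of the 2 lists depended on the scaling as well, with 0 of 9 and 3 of 12 at least 2-fold higher when centred on ribosomal protein genes, and 0 of 9 and 4 of 12 relative to genes of similar length and FPKM. Over all genes, 103 of 11962 were at least 2-fold higher when centred on ribosomal protein genes, and 206 of 11570 relative to similar genes. The range of the 8 genes of the set, from 0.37 to 1.80 as deposited, overlapped those of complex III and ATP synthase. The difference between these lists was not tested.

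**Figure D4:**
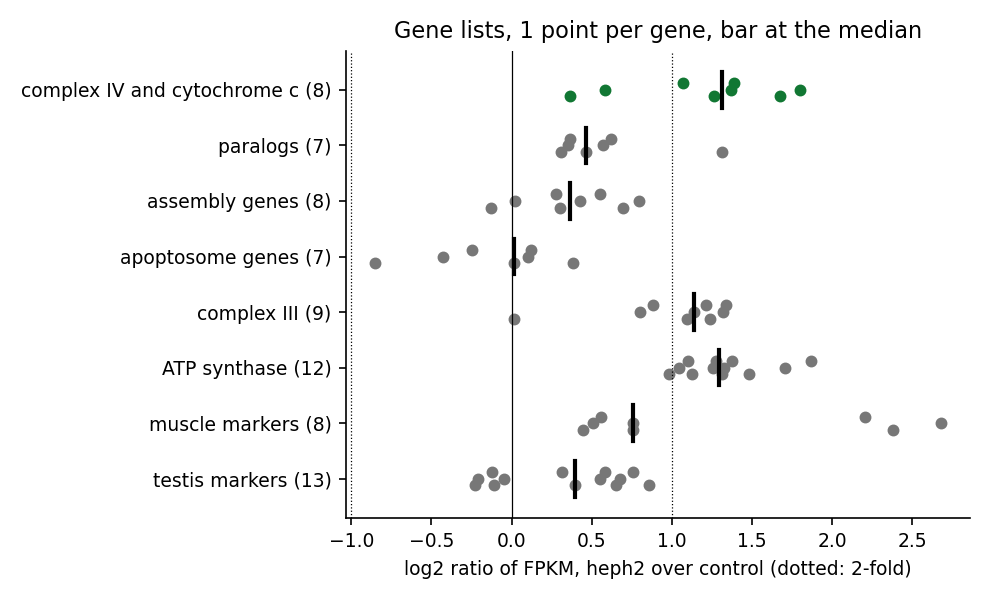
Log2 ratio of *heph2* to control FPKM for each gene of 8 lists (number of genes in brackets), with a bar at the median. The medians are 1.32 for complex IV and cytochrome c, 1.14 for complex III and 1.29 for ATP synthase, and between 0.02 and 0.76 for the other 5 lists.

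Markers of other tissues moved between the libraries as well. The 8 muscle markers were all higher in *heph2*, as were 6159 of the 11962 genes compared. At least 2-fold higher were 3 markers, against 334 of the 11962 genes compared. The summed FPKM of the 8 was 9105 in the control and 22207 in *heph2*, and their median log2 ratio was 0.76. All 8 had been listed as flight muscle markers. The 3 were *fln*, *Act88F* and *TpnC4*, with log2 ratios of 2.68, 2.21 and 2.38, above every gene of the set. The rest of the list was below 2-fold. *Mlc2* and *up* had 0.76, *wupA* 0.56, *Mhc*, the myosin heavy chain of all muscles, 0.51, and *Strn-Mlck* 0.45. The 13 testis markers had a median log2 ratio of 0.39, with 8 higher and 5 lower, none at least 2-fold changed, and a summed FPKM of 6668 and 10097. Of all genes compared, 5.23% were at least 2-fold changed. The median of the testis markers was -0.05 when centred on ribosomal protein genes. Relative to genes of similar length and FPKM, 10 of the 13 were higher and 3 lower, against 5770 higher and 5770 lower over all genes. The 6 egg chamber and yolk markers were all at least 2-fold lower in *heph2*, from a summed 260 FPKM to 16.3 FPKM. Of the 11962 genes compared, 292 were at least 2-fold lower. These 6 are female markers while both libraries are described as males, and the source of their RNA in the control was not tested. The part of muscle, testis or female RNA in the ratios of the complex IV and cytochrome c genes was not tested.

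The genes most like the 2 cytochrome c genes were found by distance between the log2 FPKM values over both libraries. Nearest to *Cyt-c-p* were *ox*, a complex III subunit gene with 1822 FPKM and 4543.5 FPKM, then *CG1746*, which encodes the c subunit of ATP synthase, with 2074 FPKM and 5151 FPKM, and *Obp99c*, an odorant-binding protein gene, with 2112 FPKM and 6004 FPKM. Their distances, 0.36, 0.38 and 0.40 on the log2 scale, show that no gene had the same pair of values. Nearest to *Cyt-c-d*, at distances of 0.04 to 0.05, were *CG7188* (*BI-1*), *FK506-bp2* and *Cpr65Au*. A likeness over 2 libraries says only that these values were similar.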

How the data were processed

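Polyadenylated RNA of whole adult males was sequenced as single reads of 50 bases, 1 library of heph2/TM3 and 1 of heph2 males. The authors mapped reads with TopHat2 2.0.4 to FlyBase r5.44, ran Cufflinks 2.0.0, and deposited FPKM values, 1 for each gene in each library. The deposited column of the authors' own comparison was not used. Whether counting used strand is not given in the sources used here, and 7 of the 8 genes share their locus entry with other genes, so reads of overlapping genes cannot be told apart. For shared entries the position is that of the region. The table counts starts from 0 (1489 of 9562 genes alone in their locus then have their BDGP6 length, against 146 for a count from 1), so 1 was added.

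FPKM values hold no counts. Many low values, but not all, lay on steps of whole reads. By these steps 1 read on 1 kilobase was worth 0.0215 FPKM in the control and 0.0332 FPKM in heph2, and 58.7% and 58.8% of low genes with a single transcript fell within 0.1 of a whole read, where 20% would with no steps. Reads were estimated with BDGP6 transcript lengths and fragments of 200 ± 80 bases and are approximate. A length was found for 96.7% of the genes compared, by identifier, or by symbol where the identifier had changed. RefSeq (Release 6) gave names and synonyms.

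The members and lists were chosen with earlier results of these data known. Every member, paralog and muscle marker was named, and of other lists the genes at least 2-fold changed, except that complex III, ATP synthase and female marker genes are given by count. The assembly and apoptosome lists had none as deposited. The genes named from them, and the muscle markers below 2-fold, were chosen for naming after their values were seen. The 3 genes nearest to each cytochrome c gene were named. Alternatives were a pseudocount of 0.1 or 1, no minimum or a minimum mean of 10 FPKM, centring on all genes, on ribosomal protein genes or within 10 bins of length with 5 of FPKM, scaling on mapped reads, and only genes alone in their locus. Python 3.11.15, numpy 2.4.6, pandas 2.3.3, scipy 1.17.1 and matplotlib 3.10.9 were used, and the calculation was tested on simulated data.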

Additional observations from a re-analysis of the deposited data

How the results depend on the processing

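Of 65 log2 ratios of single genes of the set computed under the alternatives, all 65 stayed within 1.5-fold of the values reported, and 63 were above 0. The 2 below 0 were those of *Cyt-c-d*, at -0.08 when centred on the ribosomal protein genes and -0.11 within bins of length and FPKM. The lowest value of the set is 423 FPKM, so a pseudocount or minimum could hardly move a ratio. The other settings take at most 0.56 from a log2 ratio of the set, which is less than 1.5-fold. The count of 65 is therefore no test of stability. The number of genes of the set at least 2-fold higher was 6, and it fell to 2 with either of these centrings, to 4 when scaled on mapped reads, and to 0 among genes alone in their locus entry, where *CG9603* is the single gene left and the median is 0.58. Over all genes, 334 of 11962 were at least 2-fold higher as deposited. With the 2 centrings it was 103 of 11962 and 206 of 11570. Outside the set, the subunit genes *CG10664*, *CG11015*, *CG7181* and *CG7630* are each alone in their locus entry. Their log2 ratios as deposited were 1.16, 1.65, 1.48 and 1.41. The medians of the set were 1.04 on mapped reads and 0.87 centred on the ribosomal protein genes, which lowered every log2 ratio by 0.28 and 0.44. The change in the ratio of *Cyt-c-d* to *Cyt-c-p* was -1.44 under each scaling of a whole library, and -1.35 within bins of length and FPKM. The count of all genes at least 2-fold changed in either direction, 626, was 1035 with no minimum, 382 with a mean of at least 10 FPKM and 1047 centred on the ribosomal protein genes. It was 765 on mapped reads and 455 among genes alone in their locus entry. No paired analysis was possible because each genotype has 1 library.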
